A study of Mus musculus with 6 samples.

Results

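The mTOR pathway was followed through 10 genes in pathogenic Th17 cells: *Mtor*, *Rptor* and *Rictor*, which encode core subunits of the mTOR complexes, *Tsc1*, *Tsc2* and *Rheb*, which form the switch above mTORC1, and *Ddit4*, *Sesn1*, *Sesn3* and *Castor1*, which encode brakes acting on that switch or on amino acid sensing. The members were taken by gene symbol, and 10 of 10 were found among the 16244 genes of the table and among the 11908 genes tested. RNA-seq gave 3 libraries for each of the genotypes, wild type (WT) and RORγt N275D. RORγt N275D mice carry a CRISPR knock-in that changes 1 amino acid of RORγt, the transcription factor that defines Th17 cells, in the C57BL/6 background. The control is plain WT, and the study's resource list names it as C57BL/6NJ from another source than the knock-in line, so that the allele and a difference between colonies cannot be told apart here. Cells of both genotypes shared the same treatment: naive CD4+ T cells were stimulated through CD3 and CD28 and cultured for 3 days with IL-6, IL-1β and IL-23, to which the general recipe in the methods adds TGF-β and blocking antibodies to IL-4 and IFN-γ. The tissue given in the labels is spleen. Donor mice were 6 to 12 weeks old and of both sexes by the study's general rule, and neither the age and sex of the donors behind each library nor the zygosity of the knock-in donors is given in the sources used here.

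The kinase mTOR works in 2 complexes. With Raptor (*Rptor*) it forms mTORC1, which drives protein synthesis, glycolysis and growth when nutrients and growth signals are present, and with Rictor it forms mTORC2, which phosphorylates AKT and SGK kinases. Both the TSC1-TSC2 complex, which switches off the small GTPase RHEB that activates mTORC1, and the amino acid sensors, which act through the GATOR complexes and the Rag GTPases, hold mTORC1 back. In CD4+ T cells mTORC1 is known as a requirement for Th17 differentiation. Transcript levels, which were measured here, do not report the activity of these kinases.

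Between 17659035 and 18510878 reads fell on genes in each library, and the values are normalized reads, the reads of a gene multiplied by 1 factor per library. Genes with a mean of at least 10 were tested with limma on log2(normalized reads + 1) and called at a Benjamini-Hochberg adjusted p under 0.05. Values with ± are the mean and SD of the 3 libraries of a genotype (n = 3) throughout. The labels do not say that the replicates came from separate animals or cultures, so the p-values measure only the spread between these libraries, which may be technical. Markers matched the labelled cell type, with *Il17a* between 27166 and 32673 and *Cd4* between 7575 and 9520.1 normalized reads over the 6 libraries. A gene table cannot show the knock-in allele itself. Summed markers of other cells were low beside these and partly higher in the mutant: B cell markers (5 of 5 in the table, 3 called higher) went from 150.4–160.1 to 214–273 normalized reads, CD8 T and NK markers (4 of 5, 2 called higher) from 173–204 to 256–272, and gamma delta markers (2 of 4, both called higher) from 31.3–41.3 to 58.3–65.9. Myeloid markers (5 of 5, 1 higher and 1 lower) lay at 46.4–52.5 and 43.1–56.9. *Ms4a1* and *Klrb1c*, defining markers of B and NK cells, were at or near 0, and the part of such cells in the results below was not tested. In bulk RNA, fewer cells of a type and less RNA per cell cannot be told apart.

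Promoter stretches of the member that fell most and the member that rose most are shown first, because HIF-1, whose subunit transcripts rose in the mutant (below), binds the core ACGTG and is known to induce *Ddit4*. Both run 5′ to 3′ on the gene's strand, from 250 to 101 bases before the start on which the RefSeq promoter is set (GRCm38.p6, the build mm10). For *Ddit4* that promoter start is the 5′ end of the gene as positioned below. For *Castor1*, and for *Rictor*, *Tsc1* and *Tsc2*, it lies further inside the gene. Capitals mark the core, read on the gene's strand for *Ddit4* and on the opposite strand, as CACGT, for *Castor1*.
Ddit4, chr10:59951871-59952020, minus strand: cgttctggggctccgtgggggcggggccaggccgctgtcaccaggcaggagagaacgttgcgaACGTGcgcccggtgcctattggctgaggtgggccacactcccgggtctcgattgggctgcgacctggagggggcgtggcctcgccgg
Castor1, chr11:4217975-4218124, plus strand: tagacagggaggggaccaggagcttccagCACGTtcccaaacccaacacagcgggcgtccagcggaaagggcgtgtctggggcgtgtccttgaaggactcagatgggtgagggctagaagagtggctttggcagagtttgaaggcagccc
In the 250 bases before the promoter start, the core was found on either strand in 4 of the 11 promoters listed for the members, against 16.6% of all 32851 promoters. Counted from the promoter start, the match lay 187 bases before it in *Ddit4*, 221 bases before it in *Castor1* and at position -34 in *Rptor*. In *Rheb* it lay at position -96, where it is part of an E-box, CACGTG, and so matches on both strands. Of the genes with a match, 1 rose, 2 fell and 1 was not called. The FOXO motif GTAAACA was in 0 of the 11 member promoters (3.17% of all promoters) and the ROR motif AGGTCA in 0 (14.02% of all), searched on both strands. A match describes letters in this window and is not a bound site.

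Of the 10 members, 4 rose in RORγt N275D cells (*Castor1*, *Sesn3*, *Sesn1* and *Rictor*), 4 fell (*Ddit4*, *Tsc2*, *Rptor* and *Tsc1*) and 2 were not called (*Mtor* and *Rheb*). Calls were common in this comparison: 50.9% of all genes tested were called, 24.7% as higher and 26.1% as lower, so 8 of 10 is to be read against that share. The libraries of the genotypes did not overlap for 8 members, against 57.7% of all genes tested. With a minimum of 2-fold added, 0 members and 3.59% of all genes passed. The median absolute log2 fold change was 0.18 over the members and 0.19 over all genes tested, and the median signed change was -0.06 against -0.00. The members differed in direction and in size. Log2 fold changes of the 4 brakes ran from -0.53 to 0.97, and those of the mTORC1, mTORC2, TSC and RHEB genes from -0.21 to 0.15. The wider range came from *Castor1*, *Sesn3* and *Ddit4*, while *Sesn1* (0.26) lay close in size to *Tsc2* (-0.21).

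**Figure D1:**
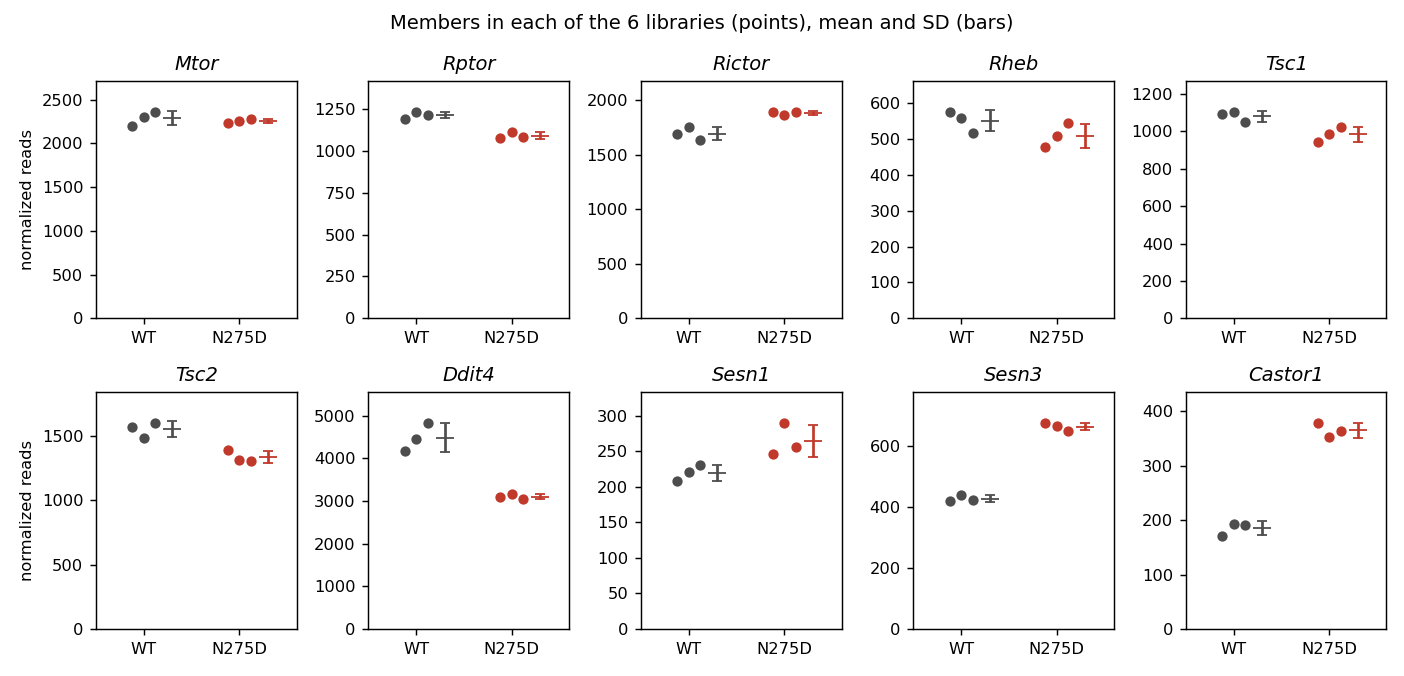
Normalized reads (vertical axes, from 0) of the 10 members in the 3 WT and 3 RORγt N275D libraries, 1 panel per gene; points are libraries, bars the mean and SD of each genotype. The genotypes are apart in 8 panels and overlap for *Mtor* and *Rheb*, and the gap, relative to the level, is widest for *Castor1*, *Sesn3* and *Ddit4*.

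*Mtor* (chromosome 4, 148448582 to 148557685 in GRCm38), the catalytic subunit of both complexes, had 2203, 2298 and 2360.4 normalized reads in the WT libraries and 2239, 2260.2 and 2283 in the RORγt N275D libraries. The mutant values lay within the WT range. The means were 2287 ± 79.1 and 2261 ± 22.05, the log2 fold change was -0.02 with a 95% interval of -0.10 to 0.07 (limma, adjusted p = 0.765), and 95.2% of all genes tested had a larger absolute change. Both ends of the interval are smaller in size than the changes of *Rptor* and *Rictor* below.

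*Rptor* (chromosome 11, 119602905 to 119899591), the scaffold through which mTORC1 binds its substrates, had 1194, 1234 and 1217 normalized reads in WT and 1078, 1114 and 1084 in mutant cells. Every mutant library was below every WT library. The mean went from 1215 ± 19.9 to 1092 ± 18.9, a log2 fold change of -0.15 (SE 0.05, limma adjusted p = 0.00979). *Rictor* (chromosome 15, 6708349 to 6800401), the scaffold that defines mTORC2, had 1694, 1754 and 1634 normalized reads in WT and 1892, 1863 and 1888 in mutant cells. All mutant libraries were above all WT libraries, the opposite order from *Rptor*. The mean went from 1694 ± 59.9 to 1881 ± 15.7, a log2 fold change of 0.15 (SE 0.04, limma adjusted p = 0.00752). Neither change was large for these libraries, since 57.3% and 57.8% of all genes tested had a larger absolute change than *Rptor* and *Rictor*.

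The ratio of *Rictor* to *Rptor* within a library does not depend on how libraries are scaled. On the log2 scale it was 0.50, 0.51 and 0.43 in the WT libraries and 0.81, 0.74 and 0.80 in the mutant libraries, with no overlap. The mean ratio went from 1.39 to 1.72 on the linear scale, and the difference of 0.31 (log2) had an exact two-sided permutation p of 0.1, the smallest that 3 against 3 libraries can give.

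*Tsc1* (chromosome 2, 28640993 to 28691172), which stabilizes TSC2, had 1091, 1105 and 1050.0 normalized reads in WT and 945, 985 and 1025 in mutant cells. The groups were apart, but the highest mutant library lay close under the lowest WT library. The mean went from 1082 ± 28.4 to 985 ± 39.9, a log2 fold change of -0.14 (SE 0.05, limma adjusted p = 0.0319), and this call was lost in 7 of 14 alternative settings, among them 4 of the 6 that leave out 1 library (adjusted p 0.0814 without WT replicate 1, 0.0950 without WT replicate 2, 0.150 without N275D replicate 1 and 0.0842 without N275D replicate 2).

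*Tsc2* (chromosome 17, 24595816 to 24632676), the subunit that acts on RHEB, had 1574, 1483 and 1605 normalized reads in WT and 1393, 1317 and 1309 in mutant cells, every mutant library lower. The mean went from 1554 ± 63.4 to 1339 ± 46.3, a log2 fold change of -0.21 (SE 0.05, limma adjusted p = 0.00140). Exons of *Tsc2* overlap those of *Pkd1* on the opposite strand, and whether counting used strand is not given in the sources used here. *Pkd1* moved the other way, from 1028 to 1198 normalized reads (log2 fold change 0.22, limma adjusted p = 0.00106), and was named after its values were seen.

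*Rheb* (chromosome 5, 24802823 to 24842361), the GTPase that TSC switches off, had 576, 559.8 and 519 normalized reads in WT and 477, 509 and 544 in mutant cells. The highest mutant library lay above the lowest WT library. The means were 552 ± 29.7 and 510.0 ± 33.5, and the log2 fold change of -0.11 was not called (95% interval -0.25 to 0.03, limma adjusted p = 0.161), although it was called without WT replicate 3 (-0.16, limma adjusted p = 0.0396). The ratio of *Tsc1* to *Tsc2* within a library was -0.53, -0.42 and -0.61 in WT and -0.56, -0.42 and -0.35 in mutant cells on the log2 scale, overlapping, with a difference of 0.08 (exact two-sided permutation p = 0.4).

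**Figure D2:**
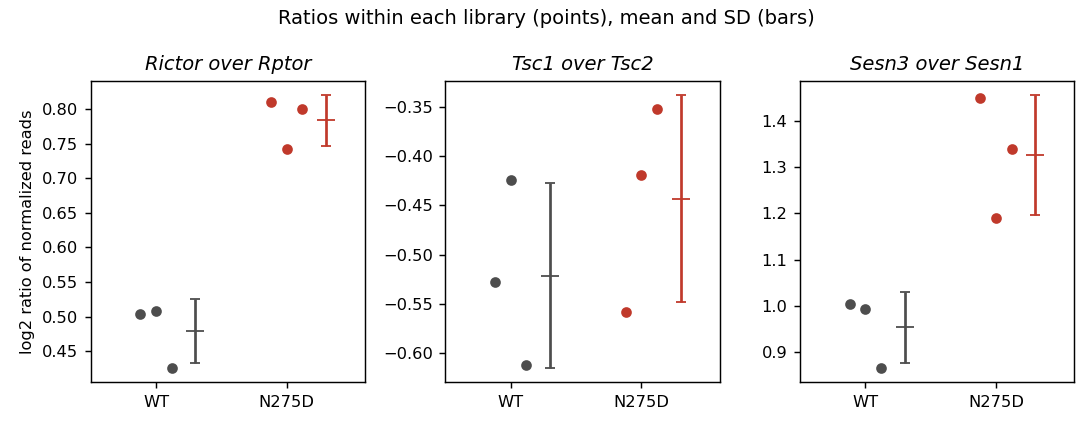
Log2 ratio of normalized reads within each library (vertical axes, which do not start at 0) for *Rictor* over *Rptor*, *Tsc1* over *Tsc2* and *Sesn3* over *Sesn1*; points are the 3 WT and 3 RORγt N275D libraries, bars the mean and SD. The genotypes are apart for *Rictor* over *Rptor* and *Sesn3* over *Sesn1*, and overlap for *Tsc1* over *Tsc2*.

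*Ddit4* (chromosome 10, 59949675 to 59951770), which encodes REDD1, a stress-induced protein that restrains mTORC1 through TSC, was the member with the most reads. It had 4162, 4464 and 4839 normalized reads in WT and 3084, 3174 and 3051 in mutant cells. The WT libraries were spread over a wider range than the mutant ones and all lay above them. The mean fell from 4488 ± 339 to 3103 ± 63.9, 1.45-fold, with a log2 fold change of -0.53 (SE 0.05, limma adjusted p = 1.90e-07), and 11.99% of all genes tested had a larger absolute change.

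The other 3 brakes, all linked to nutrient sensing, rose. *Sesn1* (chromosome 10, 41810574 to 41908436), a sestrin, which binds GATOR2 and is known as a p53 target, had 208, 219.9 and 231 normalized reads in WT and 247, 289.9 and 256 in mutant cells, without overlap. The mean went from 219.6 ± 11.5 to 264 ± 22.8, a log2 fold change of 0.26 (SE 0.08, limma adjusted p = 0.0151). This call was lost in 3 of 14 settings, without WT replicate 1 (adjusted p = 0.0606), without N275D replicate 2 (0.0996) and under quantile normalization (0.0648).

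*Sesn3* (chromosome 9, 14276301 to 14326134), a sestrin known as a FOXO target, had 418, 439 and 421 normalized reads in WT and 675, 663 and 649 in mutant cells. The gap between the genotypes was many times the spread within either. The mean rose from 426 ± 11.2 to 662 ± 13.0, 1.55-fold, with a log2 fold change of 0.64 (SE 0.06, limma adjusted p = 1.65e-07). The ratio of *Sesn3* to *Sesn1* within a library was 1.00, 0.99 and 0.87 in WT and 1.45, 1.19 and 1.34 in mutant cells on the log2 scale. These did not overlap, and the difference of 0.37 had an exact two-sided permutation p of 0.1, again the smallest possible.

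*Castor1* (chromosome 11, 4218166 to 4222409), the arginine sensor that holds GATOR2 back when arginine is low, changed most of the members. It had 172, 194 and 192 normalized reads in WT and 379, 352 and 363 in mutant cells. The lowest mutant library was well above the highest WT library. The mean rose from 186 ± 12.2 to 365 ± 13.7, 1.97-fold, with a log2 fold change of 0.97 (SE 0.08, 95% interval 0.81 to 1.14, limma adjusted p = 4.37e-08), and 3.82% of all genes tested had a larger absolute change. The interval includes the 2-fold line, which the estimate did not reach with all 6 libraries and passed barely without WT replicate 2 (log2 fold change 1.00).

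**Figure D3:**
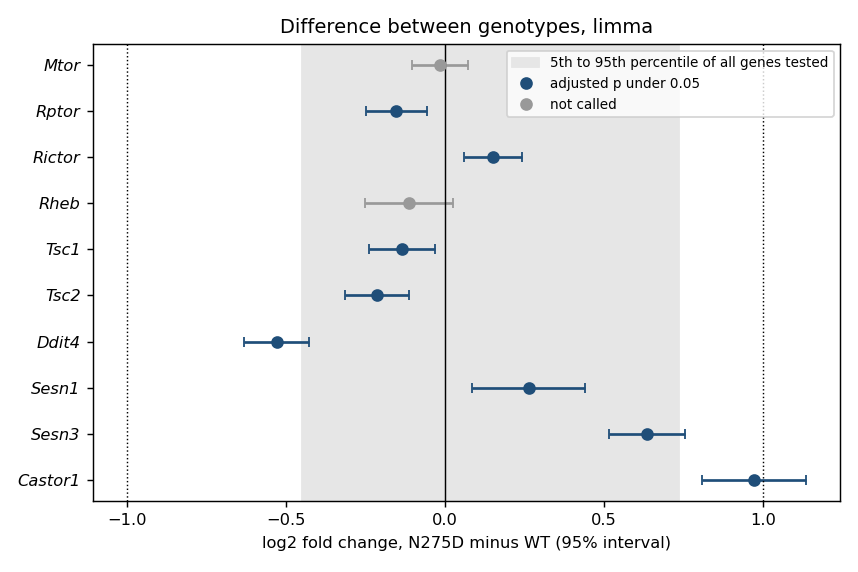
Log2 fold change of each member, RORγt N275D minus WT (horizontal axis), with its 95% interval from limma; blue points are called, grey points are not, the shaded band is the 5th to 95th percentile of all genes tested (-0.45 to 0.74) and dotted lines mark 2-fold. *Castor1* lies above the band, *Ddit4* below it, and the other 8 members inside it.

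*Castor1*, *Ddit4*, *Rheb* and the sestrins have paralogues in the table, and the transcripts of the paralogues compared here shared 0 stretches of 31 bases. *Castor2*, which pairs with CASTOR1, rose beside it from 98.9 ± 8.99 to 193 ± 8.91 normalized reads, a log2 fold change of 0.96 (SE 0.10, limma adjusted p = 9.90e-07). *Ddit4l*, a relative of *Ddit4* with few reads, fell from 18.4 ± 6.25 to 5.99 ± 2.04 normalized reads, a log2 fold change of -1.46 (SE 0.36, limma adjusted p = 0.00312). It was past 2-fold with a pseudocount of 1, but not with a pseudocount of 10 (-0.81), and its value ranged from -1.23 without N275D replicate 3 to -1.73 without WT replicate 3. *Castor2* did not reach 2-fold with all 6 libraries and passed it without WT replicate 3 (1.03). *Sesn2*, the leucine sensor of the family, had 1258 ± 37.5 and 1255 ± 17.6 normalized reads, with a log2 fold change of -0.00 (95% interval -0.10 to 0.09, limma adjusted p = 0.968). *Rhebl1* had 117 ± 12.5 and 126 ± 15.3 normalized reads (log2 fold change 0.10, limma adjusted p = 0.495). The pairs thus differed: both CASTOR genes rose, both *Ddit4* genes fell, the sestrins split into 2 that rose and 1 not called, and neither *Rheb* gene was called.

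Per kilobase of the longest coding transcript, the proportion of the CASTOR genes was alike in both genotypes while their sum was higher in the mutant. *Castor1* made up 89.8% ± 0.642 of the CASTOR level in WT and 89.9% ± 0.170 in mutant cells, and the summed level was 131 ± 8.55 and 258 ± 9.82 normalized reads per kb. Among the sestrins the proportions moved. *Sesn2* held 77.6% ± 0.157 of the summed level in WT and 71.8% ± 0.641 in mutant cells, *Sesn3* held 10.02% ± 0.324 and 14.4% ± 0.321, and *Sesn1* 12.4% ± 0.280 and 13.8% ± 0.947. In WT cells the share of *Sesn3* was below that of *Sesn1* in every library. In mutant cells the libraries of the 2 genes overlapped with this transcript length, but not with the union of exons (below). The sum over the 3 genes was 466 ± 14.1 and 503 ± 10.4 normalized reads per kb.

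**Figure D4:**
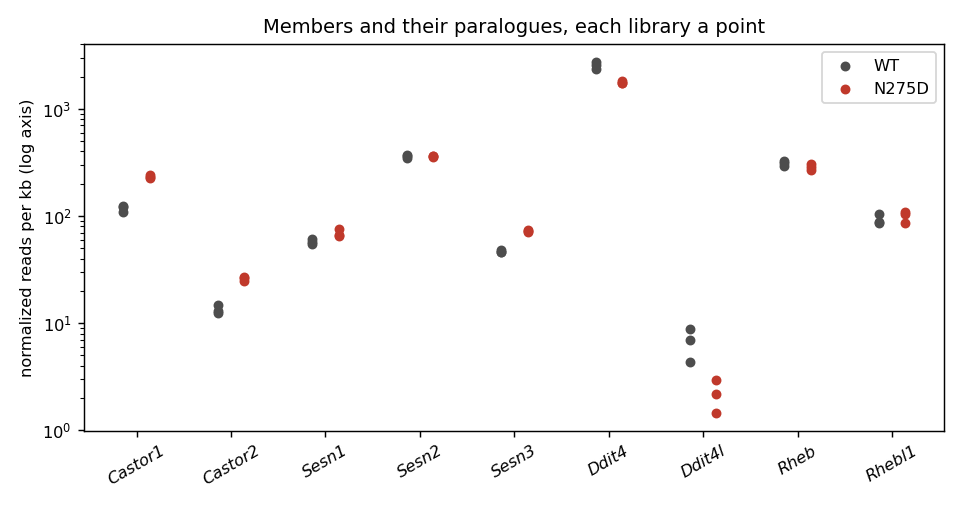
Normalized reads per kb of the longest coding transcript (vertical axis, log scale) of 5 members and their 4 paralogues; each point is a library, grey for WT and red for RORγt N275D. *Castor1* and *Castor2* are both higher in the mutant libraries, *Ddit4* and *Ddit4l* both lower, and *Sesn2*, the most abundant sestrin, lies between 351 and 372 reads per kb in all 6 libraries.

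On the same per-kilobase scale, *Ddit4* was by far the most abundant member in both genotypes, at 2557 ± 193 normalized reads per kb in WT and 1768 ± 36.4 in mutant cells. In WT cells it was followed by *Rheb* (309 ± 16.7), *Mtor* (267 ± 9.23) and *Tsc2* (248 ± 10.1). *Rptor* (184 ± 3.02) and *Rictor* (182 ± 6.43) came next and did not differ beyond their spread on this scale. Below them lay *Tsc1* (140.5 ± 3.69), *Castor1* (118 ± 7.74), *Sesn1* (57.6 ± 3.01) and *Sesn3* (46.7 ± 1.23). In mutant cells *Castor1* (232 ± 8.69) was in rank 4, up from rank 8 in WT, next to *Tsc2* (214 ± 7.38), and *Rictor* (202 ± 1.69) stood above *Rptor* (166 ± 2.87). *Sesn1* (69.3 ± 5.996) and *Sesn3* (72.6 ± 1.43) did not differ beyond their spread in the mutant on this scale. The ranks depend on the transcript length: with the union of all exons *Rheb* moves from rank 2 to 8 in WT, *Castor1* ranks 4 in WT and 2 in mutant cells, and *Ddit4* stays first. Per kb of all exons, *Rictor* was above *Rptor* already in WT cells (100.1 ± 3.54 and 90.2 ± 1.48 normalized reads), as in mutant cells (111 ± 0.929 and 81.1 ± 1.403). On that scale *Sesn3* lay below *Sesn1* in WT (27.9 ± 0.734 and 55.1 ± 2.88) and in mutant cells (43.4 ± 0.853 and 66.3 ± 5.74). The order of *Rictor* and *Rptor* in WT cells, and of *Sesn1* and *Sesn3* in mutant cells, thus depends on the length used.

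The rest of the pathway was described in 7 lists of 71 genes, of which 70 were tested. In all, 14 rose, 21 fell and 35 were not called. The called share of 50% is close to the 50.9% of all genes tested, and the median log2 fold change was -0.03. Called shares of single lists, each of few genes, ran from 33.3% (partners of the complexes) to 75% (factors known to induce the brakes). The counts by direction below are to be read against 24.7% higher and 26.1% lower among all genes tested.

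Of the partners of the complexes, 0 of 9 rose, 3 fell and 6 were not called (median -0.07). The genes that fell were *Tti1* (-0.28, limma adjusted p = 0.000552) and *Telo2* (-0.28), which help fold mTOR, and *Akt1s1* (-0.15), which encodes PRAS40. *Mlst8*, the subunit that both complexes share, had 690.3 ± 34.7 and 714 ± 27.0 normalized reads and was not called (limma adjusted p = 0.503). In the list of the TSC partner and the paralogues, 1 of 5 rose and 1 fell, as given above. The TSC subunit *Tbc1d7* was not called (280 ± 10.5 and 254 ± 13.3, limma adjusted p = 0.131).

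In the Rag-Ragulator platform, which brings mTORC1 to the lysosome, 3 of 13 genes rose and 4 fell (median -0.03). *Fnip1*, a partner of folliculin, rose from 579 ± 72.8 to 949 ± 63.0 normalized reads (log2 fold change 0.72, SE 0.08, limma adjusted p = 1.63e-06), and *Rragb*, a Rag GTPase, fell from 120.5 ± 17.0 to 73.4 ± 6.33 (-0.70, SE 0.13, limma adjusted p = 0.000265). Another Rag GTPase, *Rragd* (0.39), and *Slc38a9* (0.23, limma adjusted p = 0.0165) rose. The Ragulator subunits *Lamtor3* (-0.32), *Lamtor4* (-0.30) and *Lamtor5* (-0.18) fell. CASTOR and sestrin proteins act through GATOR. The list of GATOR and KICSTOR genes also holds *Bmt2*, which encodes a subunit of neither complex. In this list 1 of 12 tested rose, which was *Bmt2*, and 3 fell (median -0.03). *Kptn* fell most (-0.43, SE 0.09, limma adjusted p = 0.00109). *Bmt2*, which encodes the SAM sensor SAMTOR, rose (0.24, SE 0.08, limma adjusted p = 0.0231), in 8 of 14 alternative settings. That call was lost without WT replicate 2 (limma adjusted p = 0.0819), WT replicate 3 (0.0565), N275D replicate 1 (0.0870) or N275D replicate 3 (0.0666). The GATOR2 genes *Mios*, *Wdr24*, *Wdr59* and *Sec13* were not called, and *Seh1l* fell (-0.26). Of the LKB1-AMPK genes, an energy-sensing input that activates TSC, 1 of 9 rose and 3 fell (median -0.04), with *Prkaa1* (0.18, limma adjusted p = 0.00999) and *Prkag1* (-0.17, limma adjusted p = 0.00403) moving most.

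Among direct mTOR substrates, 4 of 14 rose and 5 fell (median -0.03). *Eif4ebp1*, which encodes the translation repressor 4E-BP1, rose from 1575 ± 133 to 2583 ± 78.4 normalized reads, a log2 fold change of 0.72 (SE 0.05, limma adjusted p = 2.17e-08). *Sgk1* (0.57) and *Maf1* (0.44), which encodes a repressor of RNA polymerase III, also rose. *Akt2* fell most (-0.26, SE 0.04, limma adjusted p = 4.05e-05), and *Akt1* (-0.12), *Rps6kb1* (-0.14), *Rps6kb2* (-0.20) and *Eif4ebp2* (-0.16) fell with it.

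Of 8 factors known to induce the brakes, 4 rose and 2 fell (median 0.13). The called share was 75% of these 8 genes, beside 50.9% of all genes tested. *Hif1a*, the regulated subunit of HIF-1, rose from 5137 ± 317 to 8785 ± 55.9 normalized reads, a log2 fold change of 0.78 (SE 0.04, limma adjusted p = 4.00e-10), while *Ddit4*, a textbook HIF-1 target, fell. Its partner *Arnt* (0.32), *Atf4* (0.17), an amino acid stress factor, and *Foxo1* (0.40) rose. *Foxo3* fell most (-0.30, SE 0.05, limma adjusted p = 5.89e-05), and *Trp53* fell slightly (-0.10). *Sesn3* and *Rictor*, known FOXO targets, thus rose where 1 FOXO transcript rose and 1 fell, and *Sesn1* rose where *Trp53* fell. These are transcript levels side by side, and no link between a factor and a member was tested.

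**Figure D5:**
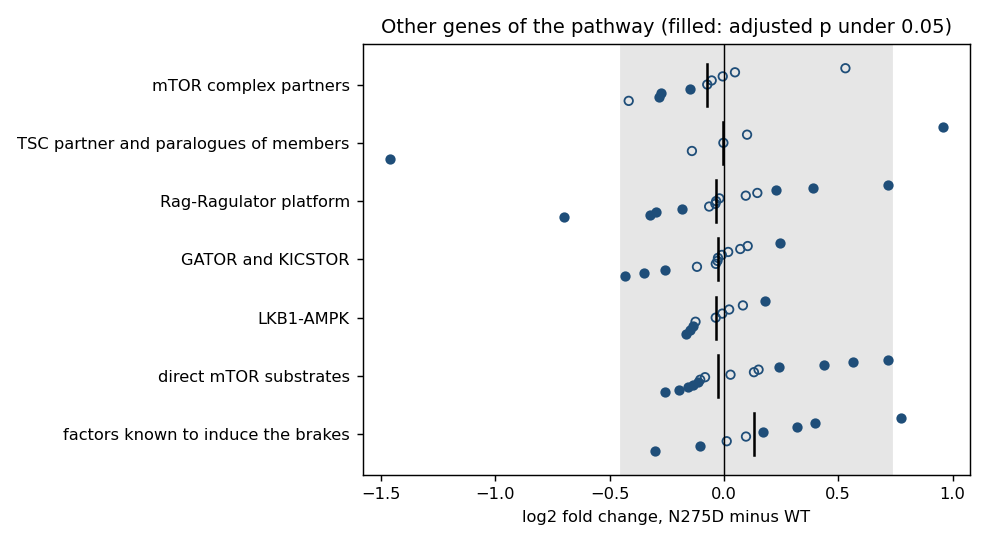
Log2 fold change, RORγt N275D minus WT (horizontal axis), of the 70 other pathway genes tested, in 7 lists; each point is a gene, filled if called, the black tick is the median of the list and the shaded band the 5th to 95th percentile of all genes tested. The medians lie between -0.07 and 0.13, and 1 gene (*Ddit4l*) lies past 2-fold.

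Across the 6 libraries, the genes whose pattern was most like that of *Castor1*, by the root mean square difference of log2 values relative to the WT mean, were *Usp35* (0.03), a gene listed as LOC118568032 (0.04) and *Enpp2* (0.05). Their log2 fold changes were 0.96, 1.01 and 0.98. The measure uses the same libraries as the genotype difference.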

How the data were processed

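According to the study's methods, the authors used STAR (mm10) on trimmed reads, then featureCounts for gene counts, and DESeq2 for the comparison. The labels name a poly-A directional kit, the methods another strand-specific library. The deposited values are a signal, each gene's read number after scaling of the whole library by the authors: in each library 100% of values were whole multiples of 1 step (tolerance 1e-04). Count tests were not run. The authors' deposited log2 fold changes, q-values and group averages were not used.

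Samples were grouped by genotype from their labels. Genes with a mean of at least 10 normalized reads (11908 of 16244) were fitted with limma 3.58.1 in R 4.3.3 (genotype only, trended prior, pseudocount 1, Benjamini-Hochberg over all genes tested, adjusted p under 0.05). The pseudocount understates fold changes of low genes. The test was tried on simulated data in which the changed genes differed 2-fold. Smaller changes, such as those of the members, were not covered by it. The members and lists were chosen with earlier results of these data known. Genes named are the members, their paralogues, in each list the called genes with the largest rise and fall, and the 3 genes most like the member that changed most; others were named after their values were seen. Gene positions and promoters are from RefSeq (GRCm38, the build mm10), and transcript lengths, exons and overlaps of genes from GENCODE M21 (GRCm38). Depth was 17659035 to 18510878 reads on genes per library. Alternatives were pseudocounts of 0.1 and 10, no filter beyond a mean above 0, a filter at a mean of 100, TMM and quantile scaling, no trend, the replicate block, and each library left out. The same-numbered libraries were checked for shared deviations. Values of some genes are not reported here.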

Additional observations from a re-analysis of the deposited data

How the results depend on the processing

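Of the 10 members, 6 (*Rptor*, *Rictor*, *Tsc2*, *Ddit4*, *Sesn3* and *Castor1*) were called in the same direction in all 14 alternative settings, *Sesn1* in 11 and *Tsc1* in 7. Besides the library losses given for it, *Tsc1* lost its call under quantile normalization (adjusted p = 0.0519), in eBayes without a trend (0.0606) and with the replicate block (0.0631), all from limma. *Mtor* was called in 0 settings, and its sign turned under quantile normalization (0.04) and without WT replicate 3 (0.01). The number of members called ranged from 6 (quantile normalization, without WT replicate 1, without N275D replicate 2) to 9 (without WT replicate 3), and that of the other pathway genes from 27 (no trend) to 35. Same-numbered libraries of the genotypes did not deviate together (correlations -0.05, 0.04 and -0.08), so the numbers were not taken as pairs; with the replicate block 7 members and 33 other pathway genes were called. The log2 fold change of *Castor1* ranged from 0.89 (quantile normalization) to 1.00 (without WT replicate 2), and the latter was the 1 setting in which it reached 2-fold. The count of all genes at 2-fold was 427, against 259 with a pseudocount of 10, 162 with a filter at a mean of 100 and 703 with a filter at a mean above 0. Subtracting the median of all genes, an alternative chosen after seeing the data, moved log2 fold changes by at most 0.02. What could be called depended on the number of reads: *Deptor*, with 21.3 ± 5.46 and 30.6 ± 2.19 normalized reads, was not called at a log2 fold change of 0.53 (limma adjusted p = 0.0636).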
